A study of Mus musculus with 4 samples.

Results

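Calcium store handling in group 2 innate lymphoid cells (ILC2s) was examined through 9 genes, Itpr1, Itpr2, Itpr3, Atp2a2, Atp2a3, Stim1, Stim2, Orai1, and Mcu, taken by symbol from the 27179 genes of the deposited count table. All 9 were in the table, and all 9 were among the 11184 genes tested. ILC2s are tissue lymphocytes that carry no antigen receptor and answer alarm signals of the epithelium with type 2 cytokines. For both groups the cells came from the large intestine of C57BL/6 WT mice, gated on KLRG1 and CD127, and were expanded over a 5-day culture in which each of 4 cytokines (IL-2, IL-25, IL-33, and IL-7) was present at 10 ng/mL. They were then given vehicle (2 libraries) or 100 μM deoxycholic acid (DCA), a bile acid made by gut bacteria (2 libraries). The treatment lasted 24 hours by the paper's methods and 16 hours by the design text deposited with the libraries. The methods give 6 to 14 weeks as the age of mice in the study and 6 to 8 weeks for C57BL/6J mice, and name both sexes in one place and only males for C57BL/6J in another, without naming these libraries. The sources used here do not say whether the 2 libraries of a treatment came from separate mice or wells, so p-values measure only the spread between these libraries, which may be technical. In such bulk samples fewer cells of a type and less RNA per cell cannot be told apart.

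The endoplasmic reticulum (ER) is the main calcium store of a lymphocyte. SERCA pumps, encoded by Atp2a2 and Atp2a3, fill it from the cytosol, and IP3 receptors, encoded by Itpr1 to Itpr3, let calcium out when surface receptors raise inositol trisphosphate. STIM1 and STIM2 sense the fall of calcium in the ER and open ORAI1 in the plasma membrane, through which calcium refills the cell and drives NFAT, and the uniporter MCU passes part of the released calcium into mitochondria. Folding enzymes of the ER need calcium, so the store is commonly studied together with ER stress.

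The libraries held 26564059 to 35838342 counts, apart from DCA replicate 2 with 244165712. ILC2 identity was checked with 10 markers, all with a mean above 1 in per-million read counts (CPM), which summed to 17958 to 19443 CPM under vehicle and 20589 to 23125 CPM under DCA. Without Il5, the leading gene, the sum was 10200 to 10800 CPM over the 4 libraries. Klrg1, used in the sort, was at 688 and 678 CPM under vehicle and 463 and 356 CPM under DCA, and Il1rl1, the IL-33 receptor, at 833 and 877 against 599 and 533 CPM (unadjusted p = 0.0154 and 0.0229, adjusted p = 0.999 for each, edgeR's quasi-likelihood test). Il2ra, Il7r, Icos, and Il5 were higher with DCA without overlap between treatments. By the same criterion, 18.6% of all genes tested were higher and 14.7% lower. Il2ra was at 1075 and 1231 CPM under vehicle and 1615 and 1585 CPM under DCA, and Il7r at 374 and 351 against 583 and 461 CPM. Icos was at 3483 and 3323 against 3586 and 3496 CPM, and Il5 at 8868 and 7727 against 9963 and 12334 CPM. Gata3, Rora, Id2, and Il13 overlapped. The part of these markers in the comparisons was not tested. Among markers of other cells, Cd4, Cd8a, Pax5, Csf1r, Cd14, Ncr1, and Fcer1a had 0 counts in every library. The T cell list (7 genes) summed to 14.5 and 26.7 CPM under vehicle and 21.7 and 11.2 CPM under DCA, nearly all of it Cd3g, and the B cell list (5 genes) to 55.2 and 47.3 against 37.8 and 44.5 CPM, nearly all of it Cd79b. The mast cell list (5 genes) was Kit almost alone, at 359 and 279 CPM under vehicle and 297 and 159 CPM under DCA. The 6 macrophage markers, and likewise the 6 markers of ILC1s and ILC3s, summed to at most 1.49 CPM in any library, and the 6 epithelial markers to 7.74 to 13.5 CPM.

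Promoter windows, from 250 bases before to 50 bases after a start site, were available from RefSeq (GRCm38.p6) for 7 of the 9 genes. Atp2a2 and Itpr1 were without an entry. The start site used was the outer end of the gene for Atp2a3, Stim2, Orai1, and Hspa5, and lay inside the annotated gene by 35 bases for Itpr2, 302 for Itpr3, 717 for Mcu, and 6305 for Stim1. The windows were searched on both strands for the ER stress response element (CCAAT, any 9 bases, then CCACG), for its second form (ATTGG, any 1 base, then CCACG), and for an ATF6 site (TGACGTGG), the letters through which ER stress factors are known to act on chaperone genes. None of the 7 windows held any of the 3 motifs, which are rare in general, with 0.119%, 0.0365%, and 0.676% of all 32851 windows holding them. Of 66 windows of other calcium genes, 4 held the first motif, and these belonged to the luminal calcium-binding chaperones Hspa5, Hsp90b1, Canx, and Calr. The second form was in 1 of the 66 (Nucb1), and the ATF6 site in 1 (Ahcyl1). A plain CCAAT box, a search added after the values were seen and whose letters are contained in the first 2 motifs, was in 4 of the 7 windows, those of Itpr2, Stim2, Orai1, and Mcu, beside 27 of the 66 and 37.4% of all windows. GC content ran from 61.7% to 78.7% in the 7 windows, with a median of 52.7% over all windows. A match is only a match of letters, and its absence refers to these windows alone. The windows of the 4 genes with a CCAAT box are shown with the box in capitals (either strand), and Hspa5 is shown for contrast with the full element in capitals, at chr6:146502174-146502473 (minus strand) for Itpr2, chr5:53998273-53998572 (plus strand) for Stim2, chr5:123014824-123015123 (plus strand) for Orai1, chr10:59616643-59616942 (minus strand) for Mcu, and chr2:34771840-34772139 (plus strand) for Hspa5.
Itpr2: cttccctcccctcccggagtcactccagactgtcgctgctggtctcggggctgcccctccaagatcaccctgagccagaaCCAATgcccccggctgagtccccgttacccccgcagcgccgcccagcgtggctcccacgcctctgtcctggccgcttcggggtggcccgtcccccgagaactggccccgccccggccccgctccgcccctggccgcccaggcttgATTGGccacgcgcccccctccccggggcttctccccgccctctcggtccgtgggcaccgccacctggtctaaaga
Stim2: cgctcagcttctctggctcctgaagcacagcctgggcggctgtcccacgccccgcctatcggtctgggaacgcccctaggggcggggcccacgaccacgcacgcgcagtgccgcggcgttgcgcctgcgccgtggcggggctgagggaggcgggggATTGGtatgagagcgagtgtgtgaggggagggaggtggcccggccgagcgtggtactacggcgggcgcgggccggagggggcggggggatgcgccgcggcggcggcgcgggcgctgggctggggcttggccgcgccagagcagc
Orai1: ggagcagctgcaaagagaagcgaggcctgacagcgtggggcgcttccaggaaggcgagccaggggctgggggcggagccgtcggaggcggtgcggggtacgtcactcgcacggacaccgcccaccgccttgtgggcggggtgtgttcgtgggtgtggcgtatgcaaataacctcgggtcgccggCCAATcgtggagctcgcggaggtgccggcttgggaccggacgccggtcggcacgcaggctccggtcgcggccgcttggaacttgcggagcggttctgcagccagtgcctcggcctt
Mcu: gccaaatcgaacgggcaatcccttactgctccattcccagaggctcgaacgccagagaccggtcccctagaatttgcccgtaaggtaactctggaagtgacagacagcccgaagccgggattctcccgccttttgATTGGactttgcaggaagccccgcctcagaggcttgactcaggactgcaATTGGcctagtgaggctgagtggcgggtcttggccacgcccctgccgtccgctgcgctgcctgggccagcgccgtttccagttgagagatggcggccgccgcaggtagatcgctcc
Hspa5: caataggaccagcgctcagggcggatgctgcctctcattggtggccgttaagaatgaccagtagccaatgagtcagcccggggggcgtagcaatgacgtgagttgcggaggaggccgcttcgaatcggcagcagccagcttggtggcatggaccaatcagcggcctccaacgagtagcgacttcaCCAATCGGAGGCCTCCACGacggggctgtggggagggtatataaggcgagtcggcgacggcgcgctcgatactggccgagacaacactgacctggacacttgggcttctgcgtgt

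Hspa5, which encodes the ER chaperone BiP and whose window holds the element, was at 1739 and 1667 CPM under vehicle and 1526 and 1484 CPM under DCA, with a log2 fold change of -0.18 (95% interval -0.62 to 0.26). Both DCA values lay below both vehicle values, as for 14.7% of all genes tested, and the difference did not pass the test (unadjusted p = 0.360, edgeR's quasi-likelihood test). Hsp90b1, whose window also holds the element, was likewise lower without overlap (log2 fold change -0.22). Canx (-0.15) and Calr (0.04), which hold it too, overlapped between treatments, so genes with the element did not share a single pattern.

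To compare abundance between the 9 genes, counts scaled by edgeR's TMM method were divided by the length of the transcript with the longest coding part (CPM per kb). The order refers to this length only and was not repeated with other lengths. The coding part is 8103 of 8331 bases for Itpr2 but 1050 of 2872 bases for Mcu, so their places depend on the length chosen. Atp2a2, the pump present in almost every cell type, was the most abundant at 32.2 CPM per kb (range 22.9 to 49.4 over 4 libraries). It exceeded the next gene, Itpr2, in 4 of 4 libraries, although their ranges overlapped, with Itpr2 reaching 23.7 CPM per kb. Itpr2 followed at 15.3 and Atp2a3, the SERCA gene typical of blood cells, at 14.3 CPM per kb. These neighbors did not separate, since their ranges overlapped and Itpr2 was the higher in 3 of 4 libraries. Mcu (8.86), Orai1 (8.31), and Stim1 (7.37 CPM per kb) came next, with ranges that overlapped each other. Mcu reached 12.6 and Orai1 13.1 CPM per kb, within the range of Atp2a3 (10.7 to 19.9). Stim1 exceeded Stim2 (3.86 CPM per kb) in 4 of 4 libraries, and their ranges, 5.64 to 10.2 and 1.10 to 5.59 CPM per kb, did not overlap. In CPM not divided by length, the ranges of Stim1 (24.6 to 44.3) and Stim2 (5.39 to 27.4) did overlap. Itpr3 (3.16) and Itpr1 (2.41 CPM per kb) closed the order, with ranges that overlapped each other and that of Stim2.

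**Figure D1:**
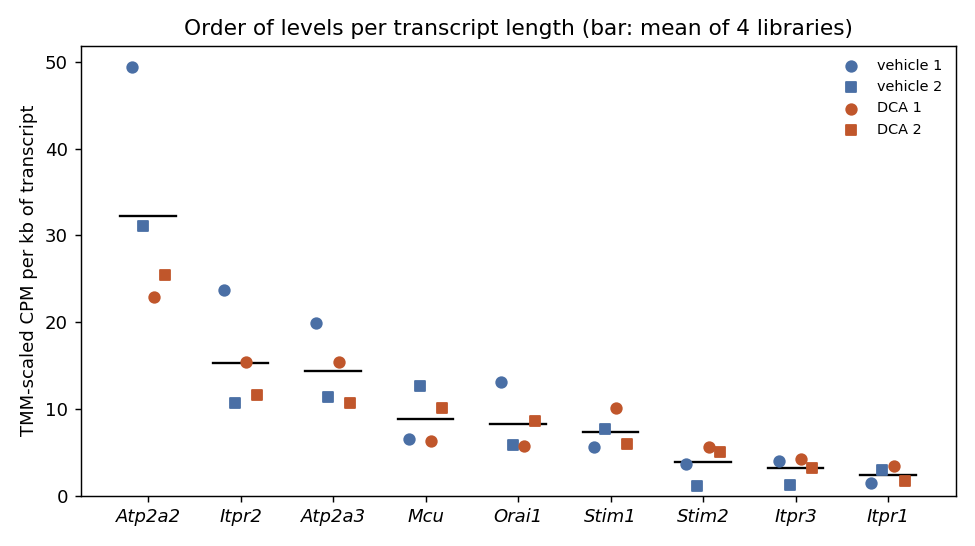
TMM-scaled CPM per kb of transcript (linear axis from 0) for each of the 9 genes in each library. Blue marks are vehicle and orange marks DCA, circles replicate 1 and squares replicate 2, and bars the mean of 4 libraries. Atp2a2 lies highest, and the vehicle replicate 1 mark at 49.4 CPM per kb stands well above the other 3 libraries.

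The question of the comparison was whether DCA changed the RNA of these genes. By the quasi-likelihood test of edgeR, no gene of the 9 passed an adjusted p of 0.05, nor did any of the 11184 genes (0.0%). With an unadjusted p under 0.05 there was 1 of 9, Atp2a2, against 4.27% of all genes tested (478 genes). With DESeq2 and with limma, 0 of the 9 passed an adjusted p of 0.05 as well, while DESeq2 called 126 genes over the whole table and limma 0. In direction, 4 of the 9 had a positive and 5 a negative log2 fold change, with a median of -0.22, beside 0.01 over all genes tested. DCA and vehicle values were fully separated for 2 of the 9 (Stim2 higher and Atp2a2 lower with DCA), beside 33.3% of all genes tested (18.6% higher and 14.7% lower).

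**Figure D2:**
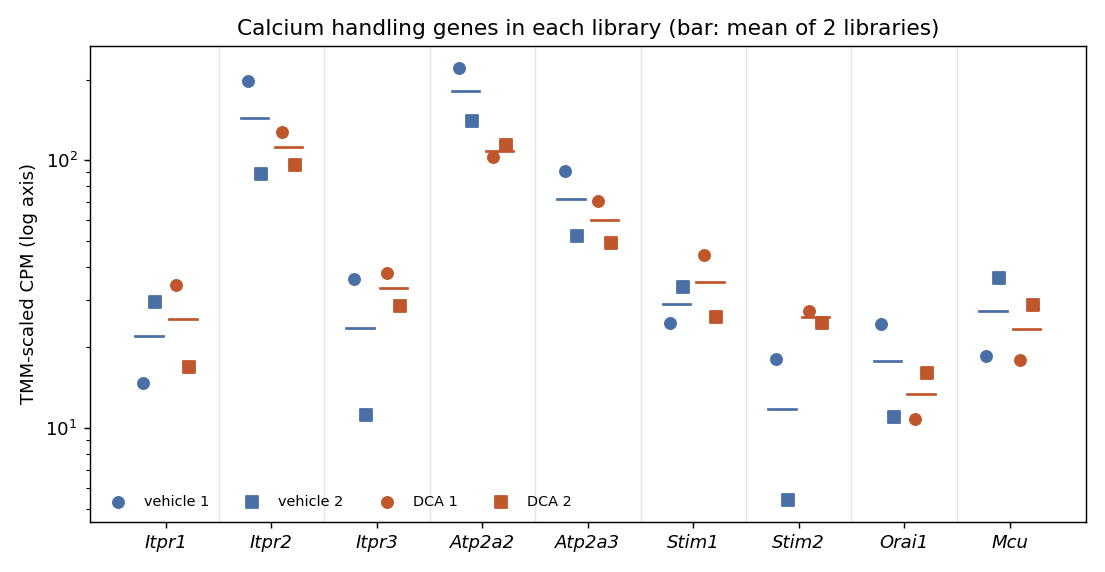
TMM-scaled CPM on a log axis for the 9 genes, with vehicle in blue and DCA in orange, circles for replicate 1, squares for replicate 2, and bars for the mean of 2 libraries. The orange and blue marks separate for Atp2a2 (DCA at 103 and 114 CPM, below vehicle) and for Stim2 (DCA at 27.4 and 24.6 CPM, above vehicle), and are interleaved for the other 7 genes.

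The SERCA pumps load calcium into the ER (gene positions are those of GRCm38.p6, the mm10 build). Atp2a2 (Entrez gene 11938, chromosome 5, 122453513 to 122502225, 20 exons) was at 222 and 139.6 CPM under vehicle and at 103 and 114 CPM under DCA. Both DCA libraries were below both vehicle libraries. The means were 181 ± 58.1 CPM (SD, n = 2 libraries) and 108 ± 8.17 CPM (SD, n = 2), and the log2 fold change was -0.74 (standard error 0.30, 95% interval -1.47 to -0.011), 0.60 times the vehicle level. In edgeR's quasi-likelihood test the unadjusted p was 0.0476, or 0.999 once adjusted, and the exact permutation p was 0.33, the smallest that 2 against 2 libraries allow. Over the 8 alternatives with all libraries the unadjusted p ran from 0.0158 to 0.0495 and the adjusted p from 0.437 to 1. The log2 fold change was -0.39 without vehicle replicate 1, the library with the highest value, and -1.03 without vehicle replicate 2. In edgeR's test leaving out DCA replicate 1 or 2 gave an unadjusted p of 0.187 or 0.124, and leaving out vehicle replicate 1 or 2 gave 0.231 or 0.00784, so the value under 0.05 was lost in 3 of these 4 fits. Atp2a3 (Entrez gene 53313, chromosome 11, 72961169 to 72993043, 22 exons) was at 91.5 and 52.4 CPM under vehicle and 70.5 and 49.0 CPM under DCA, so the groups overlapped. Its log2 fold change was -0.27 (standard error 0.39, 95% interval -1.22 to 0.68), and it was 0.16 without vehicle replicate 1.

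Since Atp2a2 and Atp2a3 serve the same function, the share of Atp2a2 in their summed counts per kb was computed, a ratio within a library that does not depend on scaling between libraries. Atp2a2 made up 71.3% and 73.2% with vehicle and 59.8% and 70.5% with DCA, a difference of -7.09 percentage points (exact permutation p = 0.33, 0.555 after Benjamini-Hochberg adjustment over 5 such shares). The difference rests on DCA replicate 1, and it was -1.77 points without that library.

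The IP3 receptors release stored calcium. Itpr2 (Entrez gene 16439, chromosome 6, 146108299 to 146502258, 57 exons), whose promoter window is shown above, was by far the most abundant of the 3, at 198 and 88.5 CPM under vehicle and 128 and 96.3 CPM under DCA. Both DCA libraries lay between the vehicle libraries, and the log2 fold change was -0.35 (standard error 0.42, 95% interval -1.36 to 0.66). Itpr1 (Entrez gene 16438, chromosome 6, 108213083 to 108551116, 62 exons) was at 14.7 and 29.6 CPM under vehicle and 34.2 and 16.9 CPM under DCA. Its libraries differed by 2.01-fold within vehicle and 2.03-fold within DCA, more than its log2 fold change of 0.20 between treatments (95% interval -1.23 to 1.64). Itpr3 (Entrez gene 16440, chromosome 17, 27057002 to 27122223, 58 exons) was at 35.97 and 11.2 CPM under vehicle and 37.9 and 28.5 CPM under DCA, for a log2 fold change of 0.49 (95% interval -1.01 to 2.00). Vehicle replicate 2 was the low library for Itpr3, and without it the log2 fold change was -0.11. RefSeq places other genes over Itpr1, Itpr2, Itpr3, Stim1, Stim2, and Mcu, among them the long noncoding RNA Itpr3os, and none of them is in the table, so their reads were not separated here.

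By share of the IP3 receptor family per kb, Itpr2 made up 81.2% and 71.5% with vehicle and 66.7% and 70.3% with DCA. Itpr3 made up 13.7% and 8.40% with vehicle and 18.3% and 19.3% with DCA, and Itpr1 held the rest, 5.10% and 20.1% against 15.0% and 10.4%. Itpr2 was therefore the majority form in all 4 libraries, and the DCA libraries lay below the vehicle libraries for the Itpr2 share and above them for the Itpr3 share. The differences were -7.84 points for Itpr2 and 7.75 points for Itpr3 (exact permutation p = 0.33 for each, 0.555 adjusted over the 5 shares, with 0.33 the smallest this design allows). Itpr1 differed by 0.09 points (exact permutation p = 1.0). Without vehicle replicate 1 the difference for Itpr2 shrank to -2.96 points.

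**Figure D3:**
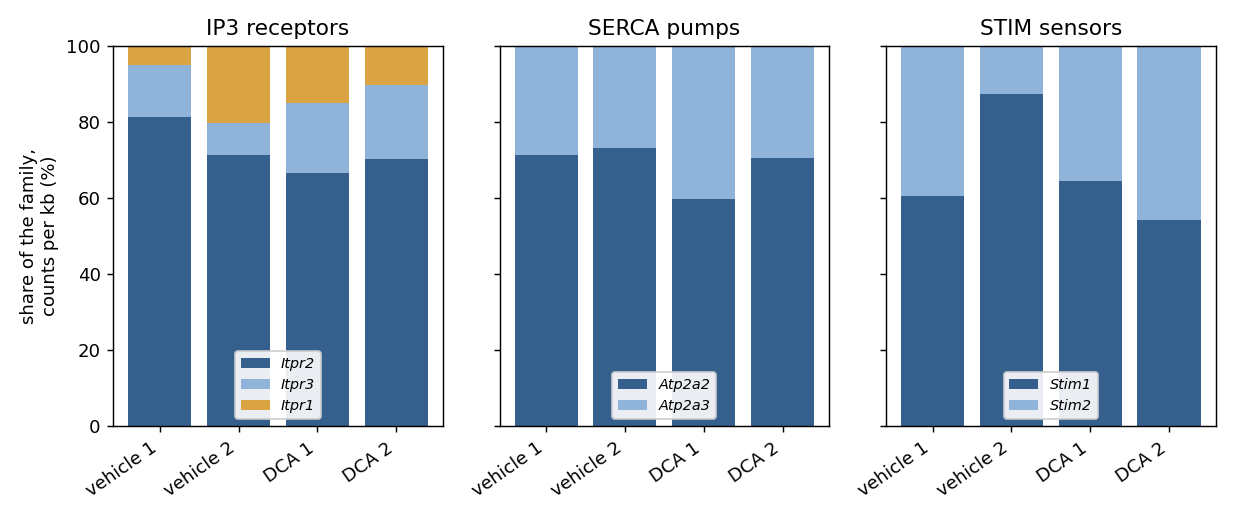
Share of each gene in its family (percent of counts per kb, axis from 0 to 100) in the 2 vehicle and 2 DCA libraries, for IP3 receptors, SERCA pumps, and STIM sensors. Itpr2 fills 66.7% to 81.2% of the IP3 receptor bars, Atp2a2 59.8% to 73.2% of the SERCA bars, and Stim1 54.3% to 87.5% of the STIM bars, with vehicle replicate 2 highest for Stim1.

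The STIM proteins sense calcium inside the ER, STIM2 responding to smaller losses than STIM1. Stim2 (Entrez gene 116873, chromosome 5, 53998523 to 54121057, 13 exons) was at 18.1 and 5.39 CPM under vehicle and 27.4 and 24.6 CPM under DCA. Each DCA value exceeded each vehicle value, but the vehicle libraries themselves differed by 3.36-fold. With a mean of 11.7 ± 8.97 CPM (SD, n = 2) against 26.0 ± 1.92 CPM (SD, n = 2), the log2 fold change was 1.15 (standard error 0.70, 95% interval -0.54 to 2.84; unadjusted p = 0.149, adjusted p = 0.999, edgeR's quasi-likelihood test). It was 0.53 without vehicle replicate 2 and 2.24 without vehicle replicate 1. Stim1 (Entrez gene 20866, chromosome 7, 102261514 to 102437319, 12 exons) was at 24.6 and 33.6 CPM under vehicle and 44.3 and 26.1 CPM under DCA, and its groups overlapped (log2 fold change 0.27, 95% interval -0.81 to 1.36). Stim1 made up 60.4% and 87.5% of the family per kb with vehicle and 64.5% and 54.3% with DCA (difference -14.6 points, exact permutation p = 0.667, 0.834 adjusted), and the difference was -1.05 points without vehicle replicate 2.

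Orai1 (Entrez gene 109305, chromosome 5, 123015074 to 123030452, 2 exons) encodes the pore of the store-operated channel. It was at 24.5 and 10.97 CPM under vehicle and 10.8 and 16.1 CPM under DCA, and vehicle replicate 1 stood apart from the other 3 libraries. The log2 fold change was -0.40 (standard error 0.66, 95% interval -1.997 to 1.19), and 0.27 without vehicle replicate 1. Its relatives Orai2 and Orai3 were members of the store-operated list, and Orai3 was singled out after its values were seen. Orai3 was at 24.2 and 17.0 CPM under vehicle and 37.6 and 38.5 CPM under DCA, for a log2 fold change of 0.89 with an unadjusted p of 0.0768 (edgeR's quasi-likelihood test). Per kb, Orai1 made up 40.1% and 35.9% of the 3 ORAI genes with vehicle and 20.5% and 27.9% with DCA, and Orai3 37.1% and 52.1% against 67.1% and 62.9%, shares chosen for description and not tested.

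Mcu (Entrez gene 215999, chromosome 10, 59446984 to 59617409, 8 exons) encodes the pore of the mitochondrial uniporter. It was at 18.6 and 36.2 CPM under vehicle and 18.02 and 28.9 CPM under DCA, and the groups overlapped (log2 fold change -0.22, standard error 0.54, 95% interval -1.52 to 1.08). Its paralog Mcub, known to lower the conductance of the channel, was picked out after its values were seen. Mcub was at 70.5 and 97.1 CPM under vehicle and 115 and 89.8 CPM under DCA, and per kb it made up 89.2% and 85.4% of Mcu and Mcub together with vehicle and 93.3% and 87.1% with DCA. The RNA of the inhibitory paralog therefore exceeded that of the pore in all 4 libraries.

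The 9 genes varied between libraries of the same treatment. Between the vehicle libraries, the median fold between CPM values was 2.01 over the 9 genes, beside 1.41 over the 5323 genes tested within the same span of levels, and 5 of the 9 differed by more than 2-fold, beside 20.2% of those genes. Between the DCA libraries the median folds were 1.44 and 1.27, and 1 of the 9, Itpr1, differed by more than 2-fold, beside 8.04%. Vehicle replicate 1 was the highest library for Itpr2, Atp2a2, Atp2a3, and Orai1, and DCA replicate 1 for Itpr1, Itpr3, Stim1, and Stim2. The 9 genes summed to 648 CPM in vehicle replicate 1, with 222 CPM from Atp2a2 and 198 CPM from Itpr2, against 401 to 473 CPM in the other libraries. When each library was left out in turn, 7 of the 9 log2 fold changes took both signs, all but Atp2a2 and Stim2.

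**Figure D4:**
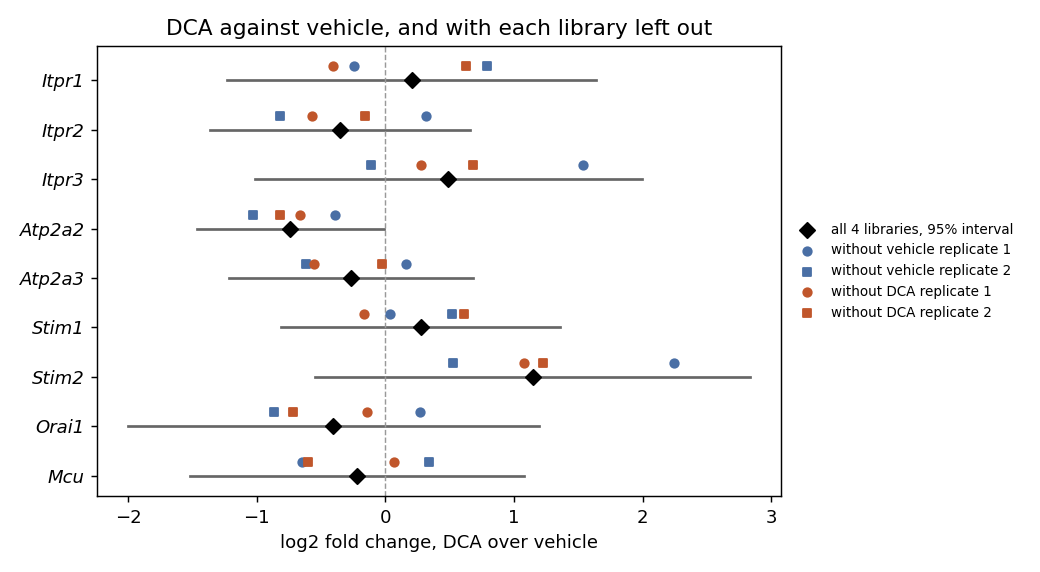
Log2 fold change of DCA over vehicle for the 9 genes. Diamonds with lines are the value and 95% interval from all 4 libraries, and small marks are the value with a library left out (blue: a vehicle library, orange: a DCA library, circle: replicate 1, square: replicate 2). Only the Atp2a2 interval (-1.47 to -0.011) lies wholly on the left of 0, and the small marks fall on either side of 0 for 7 genes.

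Around the 9 genes, 93 others of calcium signaling were listed in 7 groups, of which 92 were in the table and 71 were tested. At an adjusted p of 0.05, 0 of the 71 passed (edgeR's quasi-likelihood test). At an unadjusted p under 0.05 there were 3 of 71, with 1 higher (2.54% of all genes tested) and 2 lower with DCA (1.73%). The higher gene was Plcd1, which passed the filter on mean CPM through its DCA libraries alone. The median log2 fold change of the 71 was 0.12, with 43 positive and 28 negative, and the libraries did not overlap for 11 higher (18.6% of all genes tested) and 8 lower genes (14.7%). The 11 include Plcd1 and also Slc8a1, which passed the filter on mean CPM through DCA replicate 1 alone.

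Among the other pumps and exchangers (5 of 12 tested, 3 positive, median 0.07), the gene with the smallest p was Atp2c1, whose product SPCA1 moves calcium into the Golgi. Atp2c1 was at 57.8 and 50.3 CPM under vehicle and 22.1 and 29.0 CPM under DCA. Both DCA libraries lay below both vehicle libraries, as for Atp2a2, with a log2 fold change of -1.08 (standard error 0.37, unadjusted p = 0.0248, adjusted p = 0.999, edgeR's quasi-likelihood test). The plasma membrane pumps Atp2b1 and Atp2b4, which expel calcium, were at 139 to 182 CPM and 24.3 to 58.4 CPM, with log2 fold changes of 0.07 and 0.25. The SERCA regulators Pln, Sln, and Mrln, small muscle proteins, had 0 counts in all libraries. Slc8a1, a sodium-calcium exchanger named after its values were seen, was at 0.219 and 0 CPM under vehicle and 4.27 and 0.225 CPM under DCA, high in DCA replicate 1 alone (unadjusted p = 0.196, edgeR's quasi-likelihood test). It passed the filter on mean CPM through that library alone, and is among the 3 positive genes of this list.

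Of the mitochondrial genes, 16 of 16 were tested (9 positive, median 0.14). Micu2, a gatekeeper subunit of the uniporter, was at 140.4 and 113 CPM under vehicle and 78.3 and 79.1 CPM under DCA, for a log2 fold change of -0.69 (standard error 0.26, unadjusted p = 0.0380, adjusted p = 0.999, edgeR's quasi-likelihood test). The highest by CPM, not divided by length, were the outer membrane channels Vdac2, at 343 and 494 CPM under vehicle and 378 and 409 CPM under DCA, and Vdac3, at 253 and 373 against 314 and 352 CPM. Their log2 fold changes were -0.09 and 0.09.

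Phospholipases and inositol phosphate kinases make and remove the ligand of the IP3 receptors (8 of 13 tested, 4 positive, median 0.09). Plcd1, a phospholipase C, was without a count in either vehicle library and had 213 and 522 counts with DCA (6.59 and 2.17 CPM). Against 3 counts per vehicle library it was at least 44.5-fold higher with DCA, or at least 18.9-fold by the lower DCA library against the higher of these floors, and edgeR's quasi-likelihood test gave an unadjusted p of 0.0150 (adjusted p = 0.999, and 0.0237 to 1 over the 8 alternatives). Setting Plcd1 to its bound could not move the list median of 0.09, since Plcd1 had the highest fold change of the list either way. Plcg2, which acts downstream of immune receptors, was the highest of the list by CPM, at 58.9 and 37.5 CPM under vehicle and 24.5 and 33.99 CPM under DCA (log2 fold change -0.72, 95% interval -1.73 to 0.29), and Plcb3, a phospholipase driven by G proteins, was at 47.1 and 21.9 against 28.1 and 16.1 CPM.

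In the other 4 lists no gene had an unadjusted p under 0.05. Partners of the IP3 receptor and other ER release genes (11 of 14 tested, 7 positive) had a median of 0.19. The highest of them by CPM were the channels or leak proteins Tmbim6, with a log2 fold change of 0.24, and Tmco1, with -0.07. Partners of store-operated entry (8 of 10 tested, 5 positive) had a median of 0.04. Surf4, a cargo receptor that binds STIM1, was at 640.3 and 663 CPM under vehicle and 809 and 734 CPM under DCA, and Esyt1, a tether between ER and plasma membrane, at 423 and 317 against 381 and 239.8 CPM. Their log2 fold changes were 0.24 and -0.26.

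Luminal calcium-binding proteins (10 of 13 tested, 5 positive) had a median of -0.06, and the chaperone Hsp90b1 was at 2219 and 1970 CPM under vehicle and 1721 and 1877 CPM under DCA. Calcineurin and NFAT genes (13 of 15 tested, 10 positive), which act on the calcium that enters through ORAI1, had a median of 0.17. Calm2, which encodes the calcium sensor calmodulin, was at 561 and 737 CPM under vehicle and 696 and 887 CPM under DCA, and its log2 fold change was 0.29 (unadjusted p = 0.280, edgeR's quasi-likelihood test).

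**Figure D5:**
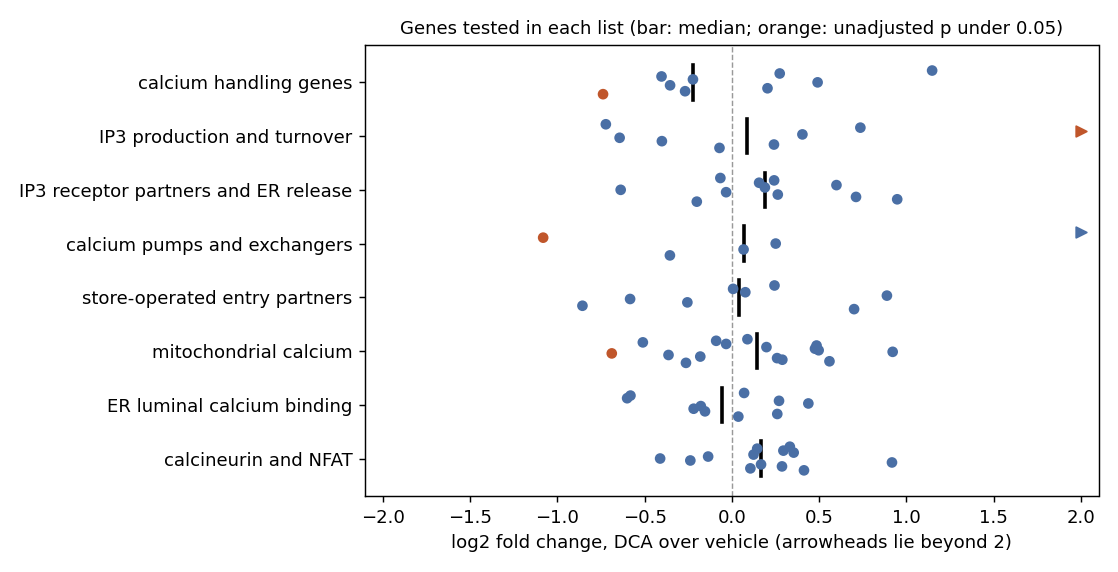
Log2 fold change of DCA over vehicle for each tested gene of the 9 calcium handling genes and of the 7 lists around them. Bars are list medians, orange marks have an unadjusted p under 0.05 (edgeR's quasi-likelihood test), and arrowheads are genes beyond 2, Plcd1 and Slc8a1. List medians lie between -0.22 and 0.19, and the orange marks are Atp2a2, Atp2c1, Micu2, and Plcd1.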

How the data were processed

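RNA-Seq libraries of cultured ILC2s (SMART-Seq cDNA, paired reads) were filtered by the authors with Cutadapt 1.9 and aligned to mm10 with HISAT2 2.2.1, per the submitters' processing notes. The deposited values are raw whole-number read counts per Entrez gene, in a table that is named after FPKM. The counting tool, annotation, and strand setting are not given in the sources used here, so reads of genes that overlap a member cannot be told apart. Genes with an Entrez identifier but no symbol (1275, at most 0.173% of a library) were kept.

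Genes averaging 1 CPM or more were tested with edgeR 4.0.16 (R 4.3.3, TMM, quasi-likelihood test, two-sided, Benjamini-Hochberg over 11184 genes). Standard errors and 95% intervals derive from its F statistic. Shares were tested with scipy 1.17.1 by two-sided exact permutation. Transcript lengths are from GENCODE M21 and gene positions from RefSeq GRCm38.p6. A count of 0 allows up to 3 counts, 0.0125 CPM in DCA replicate 2 and 0.0821 to 0.115 CPM in the others, for counting error only. Alternatives were scaling by median of ratios or by totals, no filter, a filter at 5 CPM, limma 3.58.1 on log2(CPM + 1), DESeq2 1.42.0 (named in the paper), the replicate block, DCA replicate 2 thinned to 32090062 counts, other lengths, and leaving out each library. The exon union length, and the counts of genes with a library left out, were added after seeing the data.

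The genes and lists were chosen with earlier results of these data known. Named are the 9 genes, list genes with an unadjusted p under 0.05, and the 2 genes of each list with the highest mean CPM, of which 1 is not reported here. Mcub, Orai3, Slc8a1, and the SERCA regulators at 0 were named after their values were seen, as were Canx and Calr, which have a promoter match. Hspa5 and Hsp90b1 fall under the rule on mean CPM, which did not set the use of Hspa5 as a contrast.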

Additional observations from a re-analysis of the deposited data

How the results depend on the processing

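The 9 genes kept the sign of their log2 fold change in all 72 values from the 8 alternatives that used all libraries, with an adjusted p of 0.437 or more. With a library left out, 7 changed sign and the lowest adjusted p was 0.21. The log2 fold change then ran from -1.03 to -0.39 for Atp2a2, -0.61 to 0.16 for Atp2a3, -0.41 to 0.79 for Itpr1, -0.82 to 0.31 for Itpr2, -0.11 to 1.54 for Itpr3, -0.65 to 0.34 for Mcu, -0.87 to 0.27 for Orai1, -0.17 to 0.61 for Stim1, and 0.53 to 2.24 for Stim2. A treatment with 1 library left is assumed to vary like the other. Over these fits the median of the 9 genes ran from -0.17 to 0.16, the number of the 9 with an unadjusted p under 0.05 from 0 (without either DCA library) to 2 (without either vehicle library), the genes past an adjusted p of 0.05 from 0 to 20 (without vehicle replicate 1), and the genes with an unadjusted p under 0.05 from 106 (without DCA replicate 1) to 1497 (without vehicle replicate 1).

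Genes past an adjusted p of 0.05, 0 at first, were 36 without a filter, where 17706 genes were tested, and 126 with DESeq2, and genes with an unadjusted p under 0.05, 478 at first, were 847 and 784. The cause was not tested. List medians with a library left out ran from -0.18 to -0.055 for luminal calcium binding, -0.30 to 0.38 for IP3 production, 0.007 to 0.24 for IP3 receptor partners, 0.062 to 0.25 for calcineurin and NFAT, -0.39 to 0.27 for pumps and exchangers, 0.045 to 0.10 for mitochondrial genes, and -0.19 to 0.30 for store-operated partners. Share differences ran from -12.7 to -2.96 points for Itpr2, -7.43 to 7.61 for Itpr1, 5.11 to 10.4 for Itpr3, -12.4 to -1.77 for Atp2a2, and -28.1 to -1.05 for Stim1. With the exon union length the Itpr1 difference was -0.20 in place of 0.09 points, and the other share differences kept their sign under the other lengths.

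The deviations of libraries with the same replicate number correlated at 0.0197 across genes. With 2 libraries per treatment, this value cannot tell whether libraries with the same number share mice or a culture. With the replicate block, 450 genes had an unadjusted p under 0.05 and 0 an adjusted p under 0.05, the median of the 9 genes was -0.19, that of calcineurin and NFAT genes 0.29, and that of store-operated partners 0.18. The spread between libraries of a treatment limits the precision of these values, at low and at higher counts. Stim2, at 661 and 141 counts in the vehicle libraries, differed by 3.36-fold in CPM, and Itpr2, at 7233 and 2317 counts, by 2.23-fold. The cause of the spread was not tested.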
